A study of Mus musculus with 8 samples.

Results

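Cpa3, Kit, Cd34, Mpo, Gata2 and Hdc are 6 of the 32285 genes counted in 4 single-cell libraries of sorted mouse bone marrow (BM) T cells. They were picked by symbol, with results of these data already in view, as genes that mark blood progenitors and mast cells, cell types that a T cell sort is not meant to hold. Each gene is described here in the cells of the sort that carried both Cd34 and Kit transcripts and no T cell receptor chain, called Cd34 Kit cells, and in the T cells of the same pools. Because the genes were picked for being high in Cd34 Kit cells, the difference between those cells and T cells is a description and was not tested.

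Carboxypeptidase A3, encoded by Cpa3, is a protease of mast cell granules, and Hdc encodes histidine decarboxylase, which makes histamine. Kit is the receptor for stem cell factor and is carried by blood stem and progenitor cells and by mast cells, whereas Cd34 is a surface glycoprotein of early progenitors. Gata2 is a transcription factor of stem cells and of the mast cell lineage, and Mpo encodes myeloperoxidase, an enzyme of the granules of the granulocyte and monocyte lineage that is first made in their progenitors.

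The study compared C57BL/6 mice that carried a conditional Runx1::Runx1t1 knock-in allele with Mx1-Cre (Runx1 Runx1t1/+; Mx1-Cre, the Runx1::Runx1t1 group) and sex-matched littermates with the same allele and no Mx1-Cre (the control group, given as WT in the labels). Both groups received Poly(I:C) at 5 mg/kg in 4 injections, which switches Mx1-Cre on in blood cells and other interferon-responsive cells, and BM was taken 4 weeks later. Each group had 2 pools of 2 mice each, so single mice cannot be told apart. T cells were enriched by depletion of other cells and sorted as DAPI- mCherry- CD3+, where mCherry reports expression of the fusion, before 5′ single-cell RNA and T cell receptor libraries were made.

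The libraries held 13633 to 14664 barcodes and 90958101 to 102883449 unique molecular identifier (UMI) counts, and 53033 of 56649 barcodes were kept after filters on genes, mitochondrial reads and doublets. Any pair of libraries shared 256 to 306 barcode sequences. T cells, defined by both a productive TRA and a productive TRB chain, numbered 9769 and 8783 in Runx1::Runx1t1 pools 1 and 2 and 8362 and 9017 in control pools 1 and 2. Levels below are UMI counts of a gene per 1000000 UMIs (CPM) summed over a cell class in a pool.

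Letter patterns linked to blood transcription factors were looked up in the 250 bases before each RefSeq start site (build GRCm38.p6), because Gata2 is itself one of the genes and Runx1 is the altered gene of the model. The GATA letters searched were AGATAA with its close relative AGATAG, and a further pair that starts with another base, TGATAA with its close relative TGATAG. The RUNX letters searched were TGTGGT with its close relative TGCGGT. Both strands were read. All 6 genes had a window. The Cpa3 window, at chr3:20242182-20242431 on the minus strand, held 1 RUNX match on the opposite strand and 1 GATA match 46 to 41 bases before the start. The Gata2 window at chr6:88193641-88193890 held neither. In Hdc, a GATA match lay in the stretch chr2:126618882-126618911 on the minus strand, which falls inside the longer Hdc gene of the GENCODE annotation. These 3 are printed 5′ to 3′ with matches in capitals, since these genes differed between the groups in Cd34 Kit cells.
Cpa3: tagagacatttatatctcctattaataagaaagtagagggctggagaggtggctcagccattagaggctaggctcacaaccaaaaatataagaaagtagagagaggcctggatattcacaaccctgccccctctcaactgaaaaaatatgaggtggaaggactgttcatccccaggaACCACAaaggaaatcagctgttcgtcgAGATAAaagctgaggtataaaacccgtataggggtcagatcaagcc
Gata2: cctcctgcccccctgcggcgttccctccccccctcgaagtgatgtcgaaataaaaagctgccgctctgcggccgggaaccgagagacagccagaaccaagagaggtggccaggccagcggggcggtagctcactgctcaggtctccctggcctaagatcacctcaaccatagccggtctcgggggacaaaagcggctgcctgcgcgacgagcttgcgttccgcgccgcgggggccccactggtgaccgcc
Hdc: caggggcagggaTGATAGagggctctttta
Cd34 held 1 GATA match, and Kit and Mpo held none of the letters. Over all 32841 windows of this length, 26.5% held a GATA match and 18.6% a RUNX match, so matches of this kind are common.

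Cd34 Kit cells numbered 195 and 179 in the Runx1::Runx1t1 pools and 43 and 302 in the control pools, 719 in all. They made up 1.41% (95% Wilson interval 1.23% to 1.62%) and 1.38% (1.19% to 1.59%) of kept cells in the Runx1::Runx1t1 group, and 0.337% (0.250% to 0.453%) and 2.24% (2.01% to 2.51%) in the control group. The control pools lay on either side of the Runx1::Runx1t1 pools. The mean share was 1.39% ± 0.0267 for the Runx1::Runx1t1 group and 1.29% ± 1.35 for the control group (SD, n = 2 each), with p = 1 in an exact permutation test on both sides. A test of 2 pools against 2 cannot reach 0.05. Their median depth was 11203 and 11026 UMIs in the Runx1::Runx1t1 pools and 14948 and 14832.5 in the control pools, against 6412 to 6594 in T cells.

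These cells were checked against genes that the selection did not use. A list of 12 stem and multipotent progenitor genes summed to 1231 to 1621 CPM in Cd34 Kit cells and to 238 to 392 CPM in T cells, and of its genes Mycn was at 0 in the Runx1::Runx1t1 pools. The 11 genes of the T cell list summed to 119, 137, 523 and 62.3 CPM in Cd34 Kit cells of Runx1::Runx1t1 pools 1 and 2 and control pools 1 and 2, against 5095 to 6666 CPM in T cells, and none of the 11 was at 0. A Cd3d, Cd3e or Cd3g UMI was present in 35 of 195, 50 of 179, 9 of 43 and 49 of 302 Cd34 Kit cells, so transcripts of the sorted surface complex were not detected in most of them. Runx1t1, which is part of the fusion, had 43 and 32 UMIs in Cd34 Kit cells of the Runx1::Runx1t1 pools (19.9 and 16.8 CPM) and 1 and 5 UMIs in those of the control pools (1.41 and 1.02 CPM), although the sort took mCherry- cells.

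Cpa3 (ENSMUSG00000001865, chr3:20215620-20242181, minus strand, GRCm38) separated the groups most widely. Its level in Cd34 Kit cells was 7610 CPM and 7212 CPM in Runx1::Runx1t1 pools 1 and 2, and 5.64 CPM and 9.80 CPM in control pools 1 and 2. These levels rest on 16482, 13702, 4 and 48 UMIs. No control pool came near the Runx1::Runx1t1 pools, and Cpa3 alone took 0.761% and 0.721% of all UMIs of these cells in the Runx1::Runx1t1 group. The log2 fold change was 9.78 (SE 0.23, adjusted p = 8.1e-10, edgeR quasi-likelihood test over 10118 genes), and 10.48 without control pool 2.

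The difference ran through nearly every Cd34 Kit cell. At least 1 Cpa3 UMI was found in 98.5% (192 of 195) and 97.8% (175 of 179) of the cells in the Runx1::Runx1t1 pools, and in 6.98% (3 of 43) and 10.9% (33 of 302) in the control pools. With cells thinned to an expected depth of 2000 UMIs, and cells below that depth left out, these shares were 97.9%, 97.4%, 1.26% and 1.86%. The median Cd34 Kit cell held 70 Cpa3 UMIs in both Runx1::Runx1t1 pools and 0 in both control pools. Cells with 10 or more Cpa3 UMIs numbered 171 and 147 in the Runx1::Runx1t1 pools and 0 in each control pool, where the largest count in a cell was 2 and 6.

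**Figure D1:**
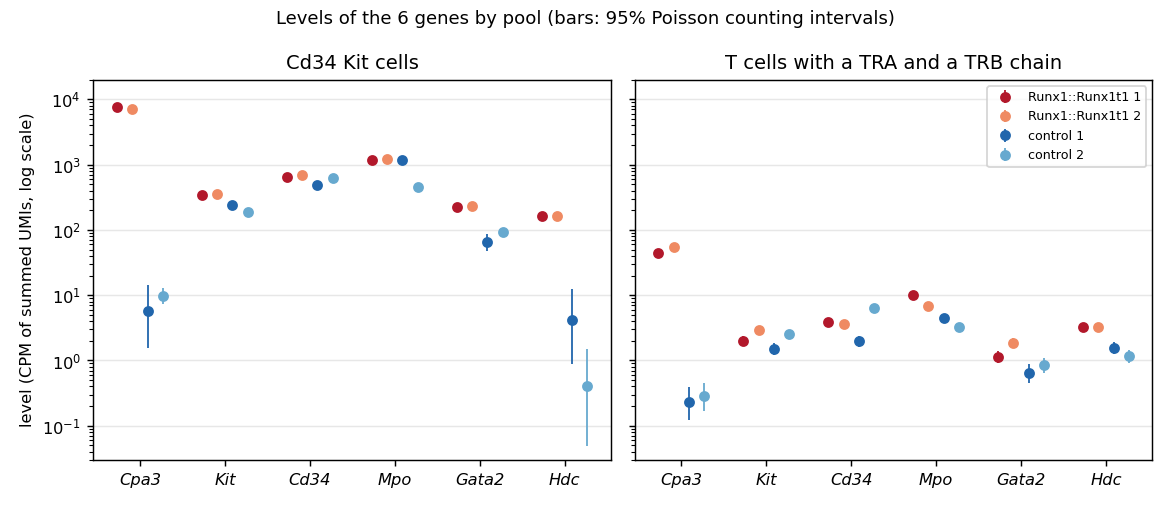
Level of each of the 6 genes (CPM of summed UMIs, log axis) in Cd34 Kit cells (left) and T cells (right), 1 point per pool with its 95% Poisson counting interval. Cpa3 and Hdc stand apart between the groups in Cd34 Kit cells, and in T cells Cpa3 lay at 44.0 and 55.5 CPM in the Runx1::Runx1t1 pools against 0.228 and 0.287 CPM in the control pools.

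Hdc (ENSMUSG00000027360, chr2:126593667-126619299, minus strand) followed the same division in a smaller set of cells. Its level in Cd34 Kit cells was 162 and 163 CPM in the Runx1::Runx1t1 pools, from 351 and 310 UMIs, and 4.23 and 0.408 CPM in the control pools, from 3 and 2 UMIs. Over the pools of each group together the ratio was 182 (95% counting interval 77.7 to 563), and the fitted log2 fold change was 7.50 (SE 0.36, adjusted p = 2.1e-07, edgeR). It was 8.58 without control pool 1 and 5.37 without control pool 2. Cells with an Hdc UMI made up 33.8% and 40.8% of Cd34 Kit cells in the Runx1::Runx1t1 pools and 2.33% and 0.662% in the control pools, or 18.9%, 20.5%, 0.280% and 0.0339% at the thinned depth. T cells of the control pools, which are shallower, held an Hdc UMI in 1.0% and 0.787% of cells. The 3 Hdc UMIs of control pool 1 lay in 1 Cd34 Kit cell. The median cell held no Hdc UMI in any pool, unlike Cpa3.

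Gata2 (ENSMUSG00000015053, chr6:88193891-88207032, plus strand) was present in both groups. Its level in Cd34 Kit cells was 222 and 234 CPM in the Runx1::Runx1t1 pools and 64.9 and 92.3 CPM in the control pools. The log2 fold change was 1.56 (SE 0.18, adjusted p = 7.7e-05, edgeR). A Gata2 UMI was seen in 76.4% and 73.2% of the cells in the Runx1::Runx1t1 pools and in 34.9% and 58.9% in the control pools, and at the thinned depth in 33.4%, 32.9%, 10.1% and 18.5%.

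Mpo (ENSMUSG00000009350, chr11:87793581-87804413, plus strand) gave a divided picture. Its level in Cd34 Kit cells was 1175 and 1206 CPM in the Runx1::Runx1t1 pools, 1172 CPM in control pool 1 and 449 CPM in control pool 2. Control pool 1 thus lay next to the Runx1::Runx1t1 pools, but 3 of its 43 cells held 84.4% of its 831 Mpo UMIs, and without them the level there was 230 CPM. The log2 fold change of 0.70 (SE 0.31) did not pass the test (adjusted p = 0.14, edgeR). The same difference was 1.5 without control pool 1 (adjusted p = 7.5e-07, edgeR), which is then a call, and 0.16 without control pool 2 (adjusted p = 0.67, edgeR). With at least 2 UMIs of both Cd34 and Kit required it was 1.71 (adjusted p = 1.2e-06, edgeR).

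Per cell, the pools of each group lay together. The median Cd34 Kit cell had 836 and 825 CPM of Mpo in the Runx1::Runx1t1 pools and 88.4 and 75.9 CPM in the control pools. Cells with an Mpo UMI made up 85.1%, 80.4%, 58.1% and 58.9% of the pools, and 71.7%, 68.2%, 28.6% and 28.7% at the thinned depth. On these per-cell measures, which were not tested, control pool 1 was close to control pool 2.

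**Figure D2:**
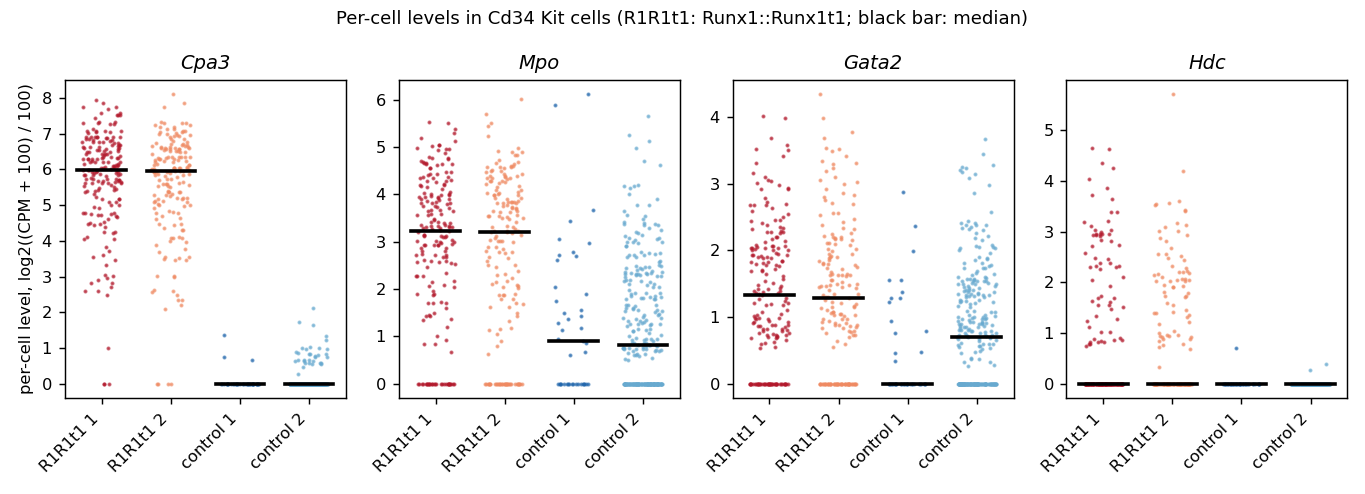
Level of Cpa3, Mpo, Gata2 and Hdc in each of the 719 Cd34 Kit cells, as log2 of (CPM + 100) / 100, with 1 point per cell and a black bar at each pool's median. Nearly all cells of the Runx1::Runx1t1 pools held Cpa3, Hdc was present in 33.8% and 40.8% of them, and 2 cells stand high for Mpo in control pool 1, at 6848 and 5840 CPM.

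Kit (ENSMUSG00000005672, chr5:75574916-75656722, plus strand) and Cd34 (ENSMUSG00000016494, chr1:194938819-194961279, plus strand) chose the cells, so their values are given without a test. Kit was at 338 and 351 CPM in the Runx1::Runx1t1 pools and at 238 and 190 CPM in the control pools. Cd34 was at 640 and 689 CPM in the Runx1::Runx1t1 pools and at 487 and 618 CPM in the control pools. The gap for Cd34 was small beside the spread of the control pools. Each cell had to hold a UMI of both genes, so the lowest level it can have is higher where its depth is lower. Median depth was lower in the Runx1::Runx1t1 pools.

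Of the 4 genes that did not choose the cells, 3 (Cpa3, Gata2 and Hdc) were called higher in the Runx1::Runx1t1 group, where 22.5% of all 10118 genes tested were called, 11.0% higher and 11.5% lower. The share called over all genes is itself large, and the 4 genes were chosen with results of these data known, so their p-values are no independent support. Cpa3 and Hdc passed the filter on low counts through the Runx1::Runx1t1 pools. Cells chosen by at least 2 Kit UMIs whatever their Cd34 count, an alternative added after the data were seen, gave log2 fold changes of 9.63 for Cpa3, 6.58 for Hdc and 1.63 for Gata2.

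Around the selection limit the pattern of Cpa3 was the same. Cells just inside it, with exactly 1 UMI of Cd34 or of Kit, had 8858 and 5696 CPM of Cpa3 in the Runx1::Runx1t1 pools and 0 and 3.53 CPM in the control pools. Just outside it, cells with only Kit had 6625, 2228, 0 and 11.9 CPM, and cells with only Cd34 had 3640, 4019, 0 and 4.58 CPM. A Cd3 UMI was found in 39.1% to 71.0% of the cells with only Kit, more than the 14.1% to 31.6% just inside, and its part in these levels was not tested.

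Few control cells held Cpa3 or Hdc, and so few held most of the 6 genes at the same time. UMIs of 5 or all 6 genes were found together in 154 of 195 and 134 of 179 Cd34 Kit cells of the Runx1::Runx1t1 pools, against 0 of 43 and 19 of 302 in the control pools. Cpa3 and Mpo were found in the same cell in 85.1% and 79.3% of the cells of the Runx1::Runx1t1 pools and in 6.98% and 7.95% of those of the control pools. Hdc and Mpo leaned apart in the Runx1::Runx1t1 pools. Of the cells with Mpo there, 27.7% and 37.5% held Hdc, and of the cells without Mpo, 69.0% and 54.3% did.

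Mast cells and basophils share several granule and receptor genes with Cpa3 and Hdc, and 10 of them formed a list. They summed to 904 and 538 CPM in Cd34 Kit cells of the Runx1::Runx1t1 pools and to 2.82 and 5.72 CPM in those of the control pools. Cma1, a mast cell chymase, was at 632 and 290 CPM against 0 in both control pools, which puts it at least 882-fold higher against a floor of 3 UMIs over the control group. Its UMIs lay in 11.8% and 7.82% of the Cd34 Kit cells of the Runx1::Runx1t1 pools, so few cells carried most of the list's sum. Il1rl1, the interleukin 33 receptor, was at 111 and 71.1 CPM against 0 (at least 173-fold higher). Ms4a2, a chain of the IgE receptor, was at 44.8 and 82.1 CPM against 0 (at least 116-fold higher). Gata1, the erythroid and mast cell transcription factor, was at 35.1 and 56.3 CPM against 2.82 and 2.25 CPM, with a log2 fold change of 4.35 (SE 0.37, adjusted p = 1.2e-05, edgeR).

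Not the whole list was present. The mast cell tryptases Tpsab1 and Tpsb2 had no UMI in Cd34 Kit cells of any pool, and Mcpt4 and Prss34 had 4 UMIs each over both Runx1::Runx1t1 pools. In all, 6 of the 10 genes could be tested and all 6 (Cma1, Il1rl1, Ms4a2, Fcer1a, Gata1 and Mcpt8) were called higher in edgeR, of which DESeq2 called 5, with a median fitted log2 fold change of 9.75, or 6.31 with the 4 genes that were at 0 in the controls set to their bounds. Those 4 passed the filter on low counts through the Runx1::Runx1t1 pools. The median over all genes tested was -0.0040.

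Of this list, Cma1, Ms4a2, Fcer1a, Il1rl1 and Gata1 were read in cells with and without Hdc, and each was higher with Hdc. In a split chosen after the values were seen, 66 and 73 Cd34 Kit cells of the Runx1::Runx1t1 pools had an Hdc UMI and 129 and 106 had none, with median depths of 11385 and 11464 against 11203 and 10177.5 UMIs. Cma1 was at 1818 and 628 CPM in the cells with Hdc and at 9.85 and 2.92 CPM in the cells without. Ms4a2 was at 117 and 157 CPM with Hdc and at 7.04 and 18.5 CPM without, and Fcer1a had no UMI in the cells without Hdc. Il1rl1 was at 232 and 132 CPM with Hdc and at 47.9 and 19.5 CPM without, so cells without Hdc carried part of the list. Mpo went the other way, at 760 and 922 CPM with Hdc and at 1393 and 1446 CPM without. Cpa3 was high on both sides, at 9971 and 8870 CPM with Hdc and at 6373 and 5807 CPM without, as was Hlf, a stem cell transcription factor, at 209 and 208 CPM against 216 and 241 CPM.

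**Figure D3:**
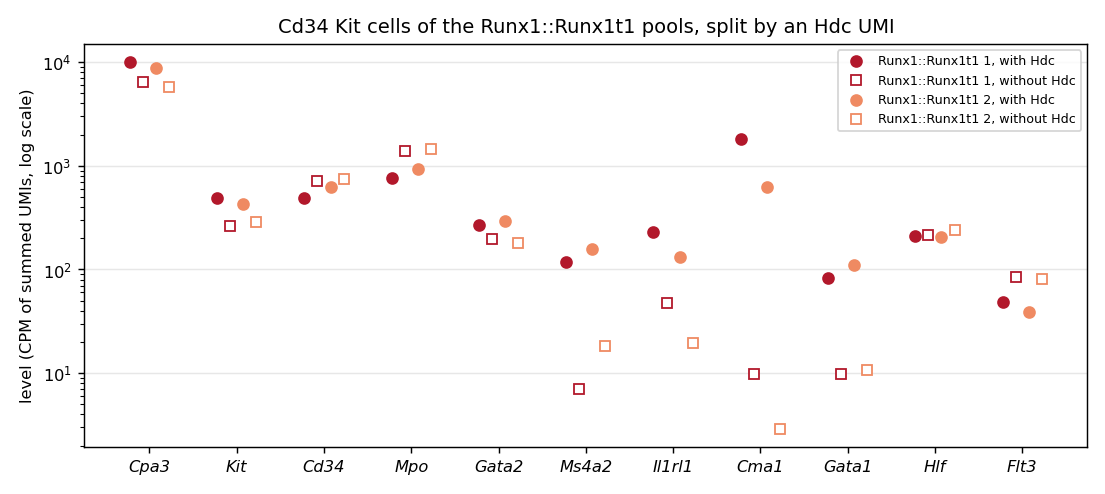
Level (CPM of summed UMIs, log axis) of 11 genes in Cd34 Kit cells of the Runx1::Runx1t1 pools, with filled circles for cells that held an Hdc UMI and open squares for cells that did not. Cma1, Ms4a2, Il1rl1 and Gata1 were higher in the cells with Hdc in both pools, and Mpo, Cd34 and Flt3 were lower.

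Across single Cd34 Kit cells, the genes most like each member were found from the correlation of ln(CPM + 1), centred within each pool, over 719 cells and 8897 genes. These are descriptions, since cells of a pool share their library and depth. Hdc was most like Ms4a2 (r = 0.51), Il1rl1 (0.49) and Slc45a3 (0.47). These values come from the Runx1::Runx1t1 pools, since Ms4a2 and Il1rl1 had no UMI in Cd34 Kit cells of the control pools. For Slc45a3, r was -0.0066 in control pool 2 and could not be computed in control pool 1. Mpo was most like Cd48 (0.44), Egfl7 (0.41) and Slc16a11 (0.38). Cd34 was most like Flt3 (0.30), the receptor for FLT3 ligand on early progenitors, then Mpo (0.23) and Cd27 (0.23). Gata2 was most like Cd63 (0.32), a granule membrane protein, Pdzk1ip1 (0.30) and Anxa5 (0.29).

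The other members had less specific partners. Cpa3 was most like Rps27a (0.41), Ftl1 (0.39) and Pfn1 (0.39), which are abundant in most cells, with r of 0.0772 to 0.121 in the control pools, where few cells held Cpa3. Kit was most like Malat1 (0.38), Gm42418 (0.24) and Il1rl1 (0.23), the last from the Runx1::Runx1t1 pools only. Among the members themselves, Kit and Mpo ran opposite ways in every pool, at -0.53 and -0.41 in the Runx1::Runx1t1 pools and -0.50 and -0.37 in the control pools. By the selection a cell has at least 1 Kit UMI, so the lowest Kit level that a cell can have is higher where its depth is lower.

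Other progenitor genes of Cd34 Kit cells moved in both directions, and members of these lists are named for their calls. Of 12 stem and multipotent genes, 3 were called higher in the Runx1::Runx1t1 group (Cd48, Procr and Myct1), 5 lower (Flt3, Adgrl4, Hoxa9, Mecom and Mycn) and 4 were not called, while DESeq2 called 7. Cd48, which marks progenitors past the stem cell stage, was at 466 and 412 CPM against 106 and 131 CPM in the control pools (log2 fold change 1.97, SE 0.18, adjusted p = 1.8e-05, edgeR). Flt3 was at 71.6 and 62.1 CPM against 185 and 221 CPM (log2 fold change -1.51, SE 0.16, adjusted p = 5.9e-05, edgeR). Hlf, at 214 and 226 CPM against 159 and 198 CPM, and Ly6a, at 283 and 272 CPM against 77.6 and 215 CPM, were not called.

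The neutrophil and granulocyte-monocyte progenitor list held the genes that usually accompany Mpo. Of its 10 genes 7 could be tested, 1 was called higher (Csf3r), 4 lower (Prtn3, Cebpa, Irf8 and Ly6c2) and 2 were not called, while DESeq2 called 3. Ly6c2 was at 21.7 and 20.5 CPM in the Runx1::Runx1t1 pools and at 20.8 CPM in control pool 2, so its call rests on control pool 1, at 1206 CPM with UMIs in 16.3% of the cells. Prtn3, a granule protease, was at 50.8 and 59.0 CPM in the Runx1::Runx1t1 pools and at 1191 and 623 CPM in the control pools (log2 fold change -3.91, SE 0.27, adjusted p = 3.1e-06, edgeR). Elane, neutrophil elastase, was at 0 in both Runx1::Runx1t1 pools, at 962 CPM in control pool 1 and at 0.817 CPM in control pool 2. Its UMIs lay in 9.30% of the cells of control pool 1. Ctsg, cathepsin G, was at 448 and 218 CPM against 379 and 149 CPM and was not called. Its UMIs lay in 65.6% and 58.1% of the cells of the Runx1::Runx1t1 pools and in 9.30% and 23.2% of those of the control pools. Mpo thus stood at 1175 and 1206 CPM in the Runx1::Runx1t1 pools beside 50.8 and 59.0 CPM of Prtn3 and no Elane UMI.

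Of the remaining lists, the erythroid genes summed to 339 to 615 CPM in Cd34 Kit cells, the lymphoid progenitor genes to 268 to 455 CPM and the megakaryocyte genes to 46.6 to 74.9 CPM. Of 3 erythroid genes tested Hbb-bt was called higher and Tfrc lower (DESeq2 called 1 of the 3), and of 3 megakaryocyte genes Itga2b was called higher and Pf4 and Gp9 lower (DESeq2 called 1). Pf4 was at 3.23 and 4.21 CPM in the Runx1::Runx1t1 pools, at 5.64 CPM in control pool 1 and at 29.8 CPM in control pool 2. Of 3 lymphoid progenitor genes Notch1 and Ighm were called lower and Dntt was not called (DESeq2 called 1), and the single natural killer gene tested, Nkg7, was called lower. None of 8 T cell, 2 dendritic and 1 B cell genes tested passed, with 1, 0 and 0 of them at an unadjusted p under 0.05 in edgeR and none called by DESeq2. No mature neutrophil gene was high enough to be tested, and that list summed to 2.11 to 14.1 CPM.

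The second place where the 6 genes were read was the T cells, which do not make these transcripts as a rule. Whether a UMI in a T cell came from RNA free in the suspension, from a second cell in the droplet or from the T cell itself was not tested. Cpa3 was again the gene that separated the groups. Its level in T cells was 44.0 and 55.5 CPM in the Runx1::Runx1t1 pools and 0.228 and 0.287 CPM in the control pools, from 3140, 3609, 13 and 18 UMIs. The log2 fold change was 7.51 (SE 0.17, adjusted p = 0.00033, edgeR over 13838 genes). The direction and the call held without each pool, with log2 fold changes of 7.35 to 7.71.

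Cpa3 was spread over many T cells of the Runx1::Runx1t1 pools. A UMI was found in 10.8% (1055 of 9769) and 13.1% (1149 of 8783) of them and in 0.0837% (7 of 8362) and 0.0998% (9 of 9017) of T cells of the control pools, at median depths of 6594, 6412, 6507 and 6594 UMIs. At the thinned depth the shares were 3.91%, 4.73%, 0.0337% and 0.0321%. In the Runx1::Runx1t1 pools 913 and 971 of these cells held exactly 1 Cpa3 UMI, whereas 22 and 19 held 10 or more, and those few held 62.3% and 62.8% of all Cpa3 UMIs of the T cells. The signal in T cells was thus made of a wide layer of single UMIs and of few cells with many.

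T cells were also set apart by how many members they held. T cells with UMIs of 2 or more of the 6 genes numbered 94 and 98 in the Runx1::Runx1t1 pools and 19 and 33 in the control pools, or 0.962%, 1.12%, 0.227% and 0.366% of T cells. Cpa3 counts toward this choice and was in 1055 and 1149 T cells of the Runx1::Runx1t1 pools and 7 and 9 of the control pools. How far the gap in these numbers restates Cpa3 was not tested. T cells of this kind are described next. The T cells with 2 or more members held 64.9% and 65.2% of the Cpa3 UMIs of T cells in the Runx1::Runx1t1 pools. Their Cpa3 level was 2147 and 2346 CPM, which is 28.2% and 32.5% of that in Cd34 Kit cells of the same pool. Kit, Cd34, Mpo, Gata2 and Hdc were at 21.1% to 66.0% of their levels there. UMIs of these genes chose the cells, so raised levels of them follow in part from the choice. In the control pools Cpa3 was at 376% and 162%, from 7 and 10 UMIs. The median depth of these T cells was 8548 and 7560 UMIs against 6576 and 6404 in the other T cells, and in the control pools 16750 and 16107 against 6502 and 6585. They carried Cd3 at a median of 16 and 22.5 UMIs, close to the 17 and 22 of the other T cells.

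With those cells left out, the members lay at a similar small part of their level in Cd34 Kit cells. In the Runx1::Runx1t1 pools Cpa3 was at 15.6 and 19.6 CPM, or 0.205% and 0.272% of its level in Cd34 Kit cells. Kit was at 0.240% and 0.232%, Cd34 at 0.153% and 0.199%, Mpo at 0.180% and 0.149% and Gata2 at 0.134% and 0.187%. These 5 genes lay within 0.134% to 0.272% in the Runx1::Runx1t1 pools, and their levels in Cd34 Kit cells ranged from 222 to 7610 CPM. The cells left out were chosen by UMIs of these same genes. Over all T cells of these pools the 5 genes lay within 0.512% to 0.865%, so they were already alike before cells were left out. With those cells left out, Hdc was higher than the 5 genes, at 1.61% and 1.0%.

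In the control pools the same part was 0.109% to 0.549% for Kit, Cd34, Mpo and Gata2. Cpa3 was at 1.88% and 1.31% there, from 6 and 8 UMIs in T cells and 4 and 48 in Cd34 Kit cells. Hdc was at 35.1% and 276%, since its level was 1.48 and 1.13 CPM in these T cells and 4.23 and 0.408 CPM in Cd34 Kit cells. For Cpa3 and Hdc these percentages divide by few UMIs in Cd34 Kit cells, 3 and 2 of them for Hdc.

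**Figure D4:**
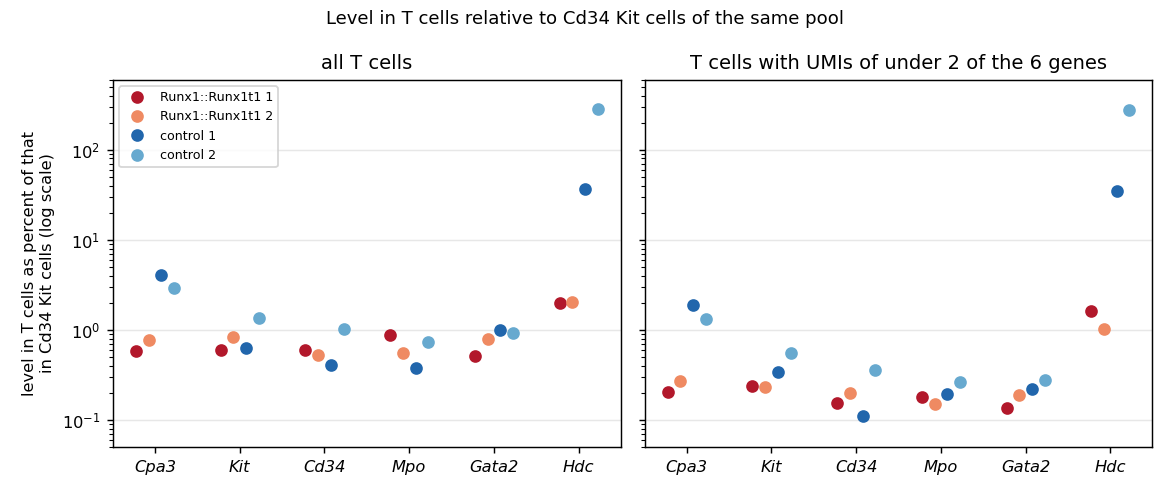
Level in T cells as a percentage of the level in Cd34 Kit cells of the same pool (log axis), for all T cells (left) and for T cells with UMIs of under 2 of the 6 genes (right), 1 point per pool. On the right Kit, Cd34, Mpo and Gata2 lie between 0.109% and 0.549% in all 4 pools, and Hdc lies above them in each pool.

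Cpa3 was found in each kind of T cell of the Runx1::Runx1t1 pools, with the cells holding 2 or more members left out. Its level was 13.9 and 17.8 CPM in T cells with Cd8a or Cd8b1 and no Cd4, 19.1 and 24.7 CPM in those with Cd4 and no Cd8, and 19.8 and 26.0 CPM in those with neither. The share of cells with a Cpa3 UMI was 10.2% and 12.2%, 9.84% and 12%, and 9.74% and 12.2%, in the same order. Cells with no receptor chain and no Cd34 or Kit UMI came out at shares of 12% and 15%. In the control pools T cells with Cd8 had 0 and 5 Cpa3 UMIs, where 0 of 4733 cells allows a share of cells with a UMI of up to 0.0634%, by counting error within that pool only.

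Among the other members only Hdc passed the test in T cells. Hdc was at 3.23 and 3.29 CPM in the Runx1::Runx1t1 pools and at 1.56 and 1.16 CPM in the control pools (log2 fold change 1.20, SE 0.20, adjusted p = 0.048, edgeR). The call was lost without control pool 1 (adjusted p = 0.22) and without control pool 2 (adjusted p = 0.20), at log2 fold changes of 1.41 and 1.02. It was also lost in T cells with Cd8 and no Cd4 (0.97, adjusted p = 0.15, edgeR). It was lost too with the T cells that held 2 or more members left out (0.66, adjusted p = 0.24, edgeR). That choice of cells uses Hdc UMIs, so a smaller difference follows in part from it. In the Runx1::Runx1t1 pools it took out 20.3% and 50.5% of the Hdc UMIs of T cells, against 5.62% and 4.11% in the control pools.

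Mpo was at 10.2 and 6.72 CPM in T cells of the Runx1::Runx1t1 pools and at 4.41 and 3.31 CPM in those of the control pools (log2 fold change 1.08, SE 0.26, adjusted p = 0.088, edgeR), and was not called. The Mpo difference was 0.71 without Runx1::Runx1t1 pool 1 and 1.38 without Runx1::Runx1t1 pool 2. Without the T cells that held 2 or more members it was 0.12 (adjusted p = 0.85, edgeR). That choice of cells uses Mpo UMIs, so a smaller difference follows in part from it. In the Runx1::Runx1t1 pools it took out 79.5% and 73.7% of the Mpo UMIs of T cells, against 48.2% and 64.4% in the control pools. Gata2, at 1.13 and 1.84 CPM against 0.650 and 0.845 CPM, was not called (log2 fold change 0.92, SE 0.31, adjusted p = 0.14, edgeR), but was without Runx1::Runx1t1 pool 1 (1.20, adjusted p = 0.034, edgeR).

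Kit and Cd34 overlapped between the groups in T cells. Kit was at 1.99, 2.89, 1.51 and 2.55 CPM, with a log2 fold change of 0.19 (SE 0.31, adjusted p = 0.73, edgeR). Cd34 was at 3.86, 3.60, 1.97 and 6.34 CPM, with a log2 fold change of -0.22 (SE 0.51, adjusted p = 0.82, edgeR). Cd34 was highest in T cells of control pool 2, the pool with the most Cd34 Kit cells, and lowest in control pool 1, the pool with the fewest. Kit was also lowest in control pool 1 but highest in Runx1::Runx1t1 pool 2, and Mpo was lowest in control pool 2. A link with the number of Cd34 Kit cells was not tested. In all, 2 of the 6 genes were called higher in T cells of the Runx1::Runx1t1 group and none lower, beside 2.61% of all 13838 genes called, 1.75% higher and 0.860% lower.

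The mast and basophil list was low in T cells of all pools. It summed to 9.14 and 10.0 CPM in T cells of the Runx1::Runx1t1 pools and to 1.81 and 1.80 CPM in those of the control pools. Of its 4 genes tested Il1rl1 was called higher (log2 fold change 2.00, SE 0.31, adjusted p = 0.044, edgeR). Il1rl1 alone was at 6.94 and 4.10 CPM against 1.44 and 1.24 CPM, most of the sum in all pools but Runx1::Runx1t1 pool 2. In the control pools it had UMIs in T cells and none in Cd34 Kit cells. Whether T cells made it was not tested. Cebpa of the granulocyte-monocyte list (8 tested) and Ncr1 of the natural killer list (4 tested) were called lower, and Cd4 of the T cell list (11 tested) higher. The mast and basophil, granulocyte-monocyte, natural killer and T cell lists had 4, 6, 4 and 3 genes at an unadjusted p under 0.05 in edgeR. DESeq2 called 3, 5, 3 and 2 of their genes, in the same order. None of the 12 stem, 7 mature neutrophil, 5 erythroid, 5 lymphoid progenitor, 4 dendritic, 3 B cell and 2 megakaryocyte genes tested was called by edgeR, with 5, 6, 1, 1, 2, 0 and 1 of them at an unadjusted p under 0.05 and 4, 6, 0, 1, 1, 0 and 0 called by DESeq2. The mature neutrophil list summed to 239 CPM in T cells of control pool 1 and to 2.00 to 16.5 CPM in the other pools.

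The classes of cells accounted for each gene's UMIs in different parts. Of the Cpa3 UMIs of all kept cells, Cd34 Kit cells held 68.3% and 64.7% in the Runx1::Runx1t1 pools and T cells held 13.0% and 17.0%, with most of the rest in cells that had Cd34 or Kit alone. Kit, Cd34 and Gata2 were divided in a like manner there, with 61.1% to 73.3% in Cd34 Kit cells. UMIs of Kit and Cd34 define the classes, so the division of these 2 genes follows in large part from the rule. In control pool 1 only 23.1% of the Mpo UMIs lay in Cd34 Kit cells, whereas 32.2% lay in cells with Cd34 or Kit alone and 35.5% in cells with neither and no receptor chain. Of the Hdc UMIs, Cd34 Kit cells held 41.4% and 46.2% in the Runx1::Runx1t1 pools and 0.977% and 1.43% in the control pools, where T cells held 29.0% (control pool 1) and 52.1% (control pool 2) and cells with neither and no chain held 58.3% and 31.4%.

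**Figure D5:**
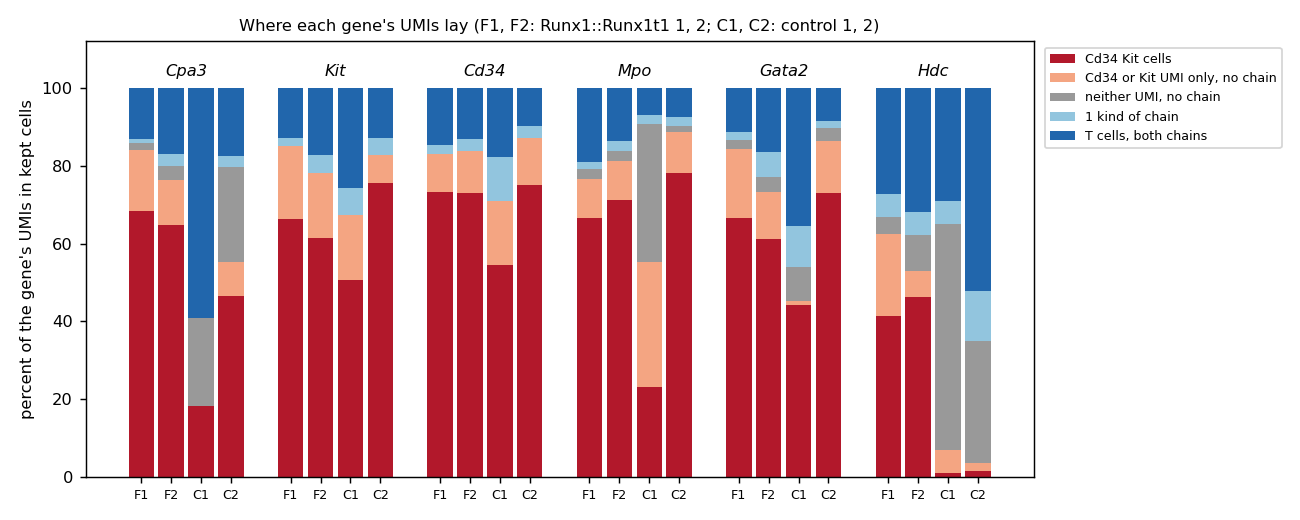
Percentage of each gene's UMIs that lay in each class of kept cells, 1 stacked bar per gene and pool (F1 and F2, Runx1::Runx1t1 pools; C1 and C2, control pools). Cd34 Kit cells held 61.1% to 73.3% of the UMIs of Kit, Cd34 and Gata2 in the Runx1::Runx1t1 pools, and 0.977% and 1.43% of the Hdc UMIs in the control pools. Kit and Cd34 UMIs define the classes.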

How the data were processed

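4 gene expression libraries and 4 T cell receptor libraries (10x 5′) were analysed. The authors mapped reads to GRCm38 with Cell Ranger 6.1.2 and deposited filtered matrices of raw UMI counts per gene and barcode, and receptor contigs with UMI counts. The annotation release is not given in the sources used here.

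From these counts, barcodes were kept where 200 genes or more were seen and mitochondrial UMIs did not exceed 15%. Scrublet (scanpy 1.11.5, expected rate 0.05) removed doublets. Where it marked under 0.5% of a library, as in 3 libraries, the top 5% of scores were removed. Cd34 Kit cells had at least 1 UMI of each gene and no productive TRA or TRB contig, and T cells had both chains. Counts were summed per pool and class and tested with edgeR 4.0.16 (TMM, filterByExpr, quasi-likelihood test, Benjamini-Hochberg over all genes, threshold 0.05). DESeq2 1.42.0 was an alternative. Only the edgeR test was tried on simulated data, with a common dispersion and large changes set in well-counted genes. Changes in genes of low counts were not covered. Intervals and floors (3 counts) cover counting error only. Genes named beyond the 6 are the most abundant of 11 marker lists, those called where few were, and the 3 most correlated per member, among genes in 10% of cells.

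The 6 genes and the lists were chosen with earlier results of these data known. Promoters came from RefSeq tables and gene positions from GENCODE M21.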

Additional observations from a re-analysis of the deposited data

How the results depend on the processing

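Of 206 values recomputed under other settings, 168 stayed the same, by rules that differed by kind of value. For gene differences it meant the same direction and side of the threshold. For counts of called genes it meant a similar count, and for the share of Cd34 Kit cells the same direction. For log2 ratios of Cd34 Kit cells over T cells it meant a value within the SD over pools, which was 3.33 for Hdc. The Cpa3 difference kept its direction and side under all 11 settings in T cells (log2 fold change 7.14 to 7.71). It did so under all 12 in Cd34 Kit cells (9.47 to 10.48), as did Hdc (5.37 to 9.16) and Gata2 (1.39 to 1.95) there. In T cells 361 genes were called, and 1255 with DESeq2, 7 in T cells with Cd8 only, and 6 to 1991 with a pool left out (819 without Runx1::Runx1t1 replicate 2, 6 and 15 without control replicates 1 and 2). In Cd34 Kit cells 2274 were called, 1143 with DESeq2 and 1527 to 3217 with a pool left out. The causes were not tested. Fits with a pool left out take the lone pool to vary like the other group.

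Without control replicate 1 the share of Cd34 Kit cells was 0.848 percentage points lower in the Runx1::Runx1t1 group, and with a pool left out the difference ran from -0.848 to 1.06. In T cells, the Kit difference turned to -0.26 without the cells holding 2 or more members, to -0.057 without Runx1::Runx1t1 replicate 2 and to -0.14 without control replicate 1, where its range with a pool left out was -0.14 to 0.64, and that of Cd34 to 0.88 without control replicate 2 (range -0.84 to 0.88), none of them called. The log2 ratio of Cd34 Kit cells over T cells, averaged over pools, moved from 6.96 to 8.28 for Kit, 7.38 to 9.06 for Cd34, 7.37 to 9.01 for Mpo and 7.0 to 8.94 for Gata2 without the T cells holding 2 or more members. With Cd34 Kit cells that had a contig let in it was 7.74, 8.58, 8.43 and 8.30, and without doublet removal it was 6.52 for Gata2. The T cells holding 2 or more members were chosen by UMIs of these genes, so changes on leaving them out follow in part from the choice. Thinning gives shares of cells only, which stand beside the full shares and leave out cells below the thinned depth.

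Replicate numbers were shared between groups, with correlations of same-numbered pools' deviations of 0.26 (T cells) and 0.14 (Cd34 Kit cells), and nothing says that a number pairs them. With the replicate number as a block, 731 genes were called in T cells, including Mpo (adjusted p = 0.033, edgeR), and 2579 in Cd34 Kit cells, including Mpo (log2 fold change 0.84, adjusted p = 0.00024, edgeR). Mpo in Cd34 Kit cells was also called with no filter on low counts (0.71) and, as added after the data were seen, without cells with a Cd3 UMI (1.08) or in cells with 2 Kit UMIs (1.63), and in T cells with DESeq2 (1.09) and without doublet removal (1.37). With 2 pools a group and 43 Cd34 Kit cells in control pool 1, small differences could not be resolved.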
